A study of Rattus norvegicus with 12 samples.

Results

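Caveolins and cavins are the structural proteins of caveolae, the small flask-shaped pits of the plasma membrane, and 7 genes encode them in the rat: the caveolins Cav1, Cav2 and Cav3 and the cavins Cavin1, Cavin2, Cavin3 and Cavin4. The members were taken by symbol from a table of 30562 genes, all 7 were found there, and all 7 were among the 12263 genes that were tested. The set was selected on the TPM values of MMA+FA and FA cells, because Cavin4, its muscle-specific member, was higher in MMA+FA. That contrast is therefore described for every member with no test, and Cavin4 is tested only in MMA against control. The means compared there use none of the libraries of that contrast. The spread in the test is estimated from all 12 libraries, so the test is not fully independent of the choice.

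RNA was measured in H9c2 cells, an established line from embryonic rat heart that is used as a model of cardiac muscle cells. The 4 groups, of 3 libraries each, were cells given MMA and folic acid (FA) together, written MMA+FA, cells given MMA, cells given FA, and control cells given neither. MMA is methylmalonic acid, an organic acid that builds up when vitamin B12-dependent metabolism fails. The sources used here give no doses or times of exposure, all groups are the same single line, and nothing says that the libraries of a group came from separate cultures, so p-values measure only the spread between these libraries.

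Caveolins are hairpin membrane proteins that gather cholesterol and assemble into oligomers at the inner face of the membrane, and cavins are soluble coiled-coil proteins that coat the outside of the bulb. Cav1, Cav2 and the first 3 cavins are found in many cell types, with high amounts in endothelial cells, adipocytes, fibroblasts and smooth muscle. Cav3 and Cavin4 belong to striated muscle, where caveolae and caveolin-rich tubules are tied to the sarcolemma and the transverse tubules.

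Of the labelled cell type, several defining markers were near 0. Myh6 and Myh7 (cardiac myosins), Actn2, Ryr2 and Actc1 averaged at most 0.167 TPM (a level corrected for transcript length and scaled to the same total in every library) in every group, while the cardiac factors Nkx2-5 and Gata4 averaged 11.04 to 12.1 and 5.68 to 6.41 TPM. The cardiac troponin Tnnt2 averaged 73.6 ± 9.53 TPM in MMA+FA, 21.4 ± 1.55 in MMA, 44.5 ± 2.43 in FA and 16.1 ± 2.41 in control cells (SD, n = 3 each). The skeletal muscle factors Myod1 and Myog were also present, Myod1 at 31.7 ± 3.30 TPM in MMA+FA, 59.97 ± 1.29 in MMA, 55.2 ± 8.33 in FA and 72.7 ± 2.57 in control cells. Myog averaged 18.4 ± 1.01 TPM in MMA+FA, 14.2 ± 0.728 in MMA, 21.4 ± 1.14 in FA and 15.8 ± 2.09 in control cells. The 10 markers of endothelial cells summed to at most 0.62 TPM in any library, 3 of them were at 0 in every library, and none was tested. The 13 mitochondrially encoded genes took 10.1% to 11.1% of all TPM in MMA+FA, 10.3% to 11.4% in MMA, 8.78% to 10.4% in FA and 9.34% to 9.87% in control libraries, so that every MMA+FA and MMA library was above every control library. The tests were also run with these genes dropped and TPM rescaled. Among the members, this changed the calls of Cav2 and Cavin2 in MMA+FA against control. Beyond that rescaling, the part of the mitochondrial share in the results was not tested, and the read depth of the libraries is unknown.

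The regions just upstream of 3 members are shown because Cavin4 and Cavin1 had the widest ranges of the family and Cav3 is the caveolin of muscle. Each is a window of 300 bases that ends shortly after the RefSeq start, on build GRCr8, at chr5:67792182-67792481 on the plus strand for Cavin4, chr4:147137743-147138042 on the plus strand for Cav3 and chr10:86396334-86396633 on the minus strand for Cavin1. Capitals mark matches, on either strand, to an E-box (CANNTG), a TATA box (TATAAA), a GC box (GGGCGG), an MCAT element (CATTCC), a MEF2 site or a CArG box.
Cavin4: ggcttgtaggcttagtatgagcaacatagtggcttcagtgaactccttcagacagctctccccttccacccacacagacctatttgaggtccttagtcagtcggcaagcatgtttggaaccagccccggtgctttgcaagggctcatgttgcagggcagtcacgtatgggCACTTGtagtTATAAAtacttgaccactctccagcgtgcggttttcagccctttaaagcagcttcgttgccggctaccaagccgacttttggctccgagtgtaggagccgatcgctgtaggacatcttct
Cav3: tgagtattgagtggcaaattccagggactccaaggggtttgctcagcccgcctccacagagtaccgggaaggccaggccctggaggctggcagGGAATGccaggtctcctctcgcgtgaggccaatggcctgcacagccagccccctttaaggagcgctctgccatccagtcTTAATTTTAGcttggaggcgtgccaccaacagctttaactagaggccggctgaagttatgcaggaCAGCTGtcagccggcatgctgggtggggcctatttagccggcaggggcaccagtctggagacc
Cavin1: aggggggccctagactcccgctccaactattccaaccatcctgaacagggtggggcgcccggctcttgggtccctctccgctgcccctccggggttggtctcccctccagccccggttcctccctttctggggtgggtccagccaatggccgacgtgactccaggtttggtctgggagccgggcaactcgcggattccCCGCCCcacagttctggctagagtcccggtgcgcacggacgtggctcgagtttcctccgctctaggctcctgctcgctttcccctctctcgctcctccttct

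The Cavin4 window held an E-box at -80 and a TATA box at -70, counted to the first base of the match with -1 just before the start. In the Cav3 window there were an MCAT element at -157, a MEF2 site at -78 and an E-box at -13. The Cavin1 window held a GC box at -52 and none of the other motifs. Over 33469 rat promoters of the same length, an E-box was present in 72.1%, a TATA box in 14.2%, an MCAT element in 14.2%, a GC box in 33.1%, a MEF2 site in 3.29% and a CArG box in 1.64%. Cavin4 had no MEF2 or CArG match, which says only that these letters are not in this window. RefSeq windows matched 6 of the 7 members, and Cavin3 had none. Of other RefSeq loci, 2 uncharacterised ones overlap Cavin1, and the strand setting of the counting is not given, so part of its level may come from them. Cav2 and Cav1 lie next to each other on chromosome 4.

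All 7 genes were expressed in every library, at very unequal levels. Cavin3 was the highest in each group and Cav1 the second, with library means over the series above those of 97.0% and 93.8% of tested genes. Cavin4 was the lowest of the family in each group, at a level close to the middle of all tested genes (above 49.9% of them). Cav3, Cavin2, Cavin1 and Cav2 lay between, and most neighbours among them overlapped in MMA, FA and control cells. In MMA+FA cells the order was Cavin1, Cav3, Cavin2, Cav2, of which Cavin1 and Cav3 overlapped in range. In control cells it was Cavin2, Cav3, Cav2, Cavin1, and Cavin1 was there below the other 3 in every library. From the lowest to the highest of the 12 libraries, Cavin4 spanned 2.07-fold and Cavin1 2.03-fold, against 1.18-fold for Cav1.

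**Figure D1:**
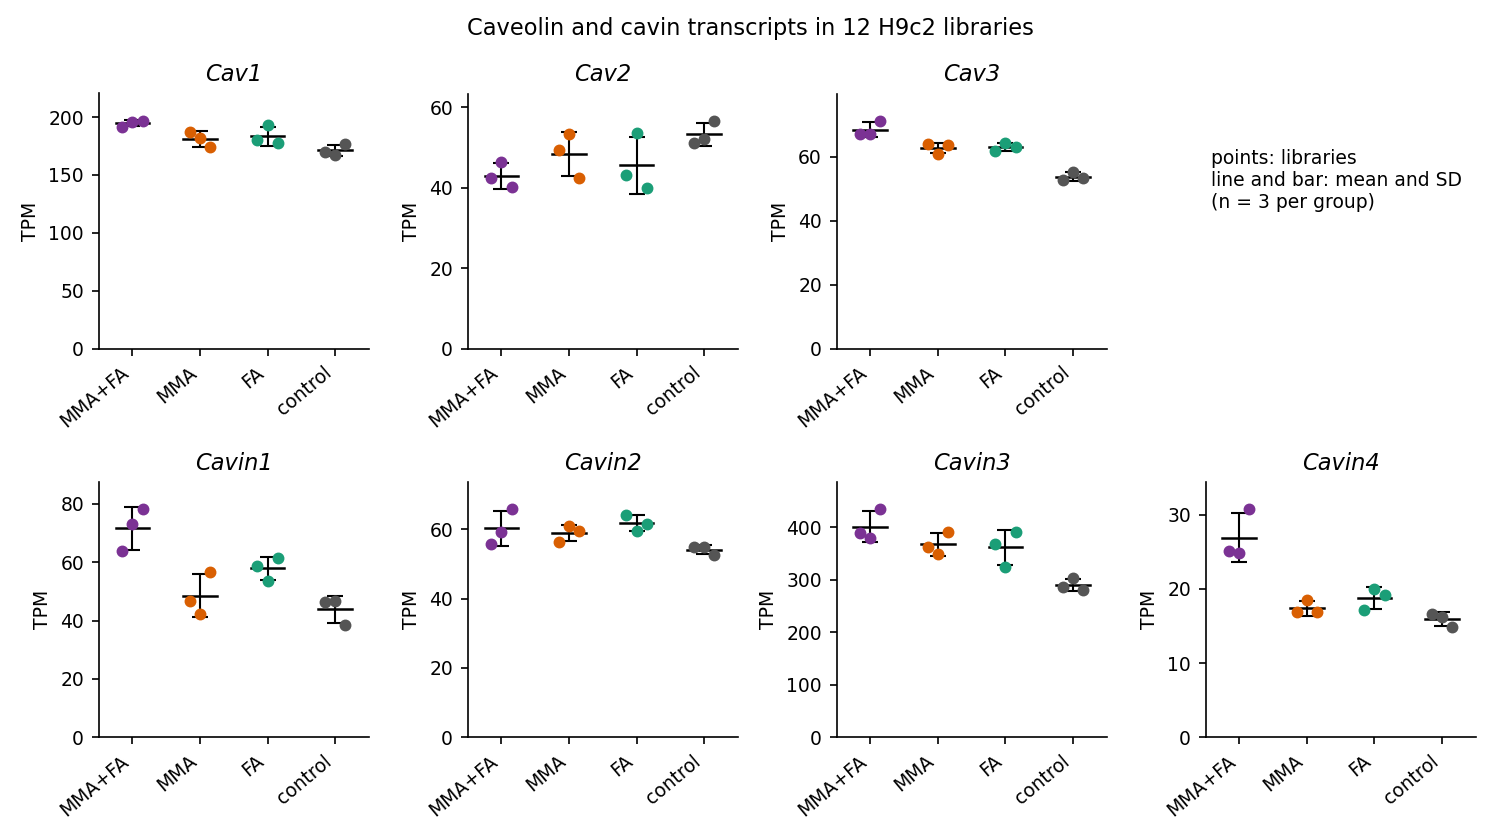
TPM of each of the 7 genes in MMA+FA, MMA, FA and control libraries, each panel with its own axis from 0; points are libraries, bars the group mean and SD (n = 3). Cavin4 is at 24.9 to 30.8 TPM in the MMA+FA libraries and at 14.9 to 20.1 TPM in the other 9, and Cav2 is the one gene whose control mean is the highest.

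Cav1, the caveolin that is needed for caveolae outside striated muscle, was at 192, 196 and 197 TPM in MMA+FA, 187, 182 and 174 TPM in MMA, 180.1, 193 and 177 TPM in FA, against 169, 167 and 177 TPM in control cells. The MMA+FA libraries were all above the MMA and control libraries, and 1 FA library reached into their range. Cav1 was higher in MMA+FA than in control cells by 13.7%, a difference of 0.18 ± 0.04 on the log2(TPM + 1) scale (SE, limma adjusted p = 0.00498). In the comparisons with 1 agent it did not pass, with log2 differences of 0.08 for MMA (limma adjusted p = 0.192) and 0.10 for FA (limma adjusted p = 0.133), although the FA and control libraries did not overlap. Median-ratio scaling divides each library by the median, over genes, of its ratio to the gene's geometric mean over the 12 libraries. After median-ratio scaling, Cav1 passed in MMA and in FA against control and in MMA+FA against MMA (log2 0.16, 0.15 and 0.15, limma adjusted p = 0.0256, 0.0438 and 0.0346).

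Cav2, which needs Cav1 to reach the cell surface and is not required for caveolae to form, was lowest in MMA+FA and highest in control cells. It was at 42.3, 46.3 and 40.1 TPM in MMA+FA, 49.3, 53.2 and 42.4 TPM in MMA, 43.1, 53.5 and 39.99 TPM in FA, against 51.2, 52.0 and 56.6 TPM in control cells. Every MMA+FA library was below every control library, whereas 1 library of FA and 1 of MMA lay within the control range. Cav2 fell by 0.31 ± 0.10 on the log2 scale in MMA+FA against control (limma adjusted p = 0.0342), to 42.9 ± 3.17 TPM in MMA+FA, against 53.2 ± 2.92 TPM in control cells. This call was lost after median-ratio scaling (log2 -0.19, limma adjusted p = 0.208), without MMA+FA replicate 1 or 3 and without any 1 of the 3 control libraries. In MMA and in FA the log2 differences from control were -0.14 and -0.23, and neither passed (limma adjusted p = 0.348 and 0.154). Without FA replicate 2 the FA value was -0.35 and passed (limma adjusted p = 0.0217).

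The ratio of Cav2 to Cav1 within a library does not depend on how libraries are scaled. It averaged 0.220 ± 0.0166 in MMA+FA, 0.267 ± 0.0253 in MMA, 0.247 ± 0.0270 in FA and 0.311 ± 0.0091 in control cells (SD, n = 3 each). Its highest value in the 9 treated libraries was 0.293, below the lowest control value of 0.302. For a single treated group against control, a permutation of 3 libraries against 3 cannot give a p below 0.1. No test of the ratio was run, and the separation of the 9 treated libraries from control is a description.

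Cav3, the muscle caveolin that also takes part in forming the transverse tubules, was higher in every treated group than in control. It was at 67.0, 67.2 and 71.3 TPM in MMA+FA, 63.9, 60.9 and 63.6 TPM in MMA, 61.8, 64.5 and 63.1 TPM in FA, against 52.8, 55.4 and 53.4 TPM in control cells. The control libraries were below all 9 treated ones, the MMA and FA libraries overlapped, and the MMA+FA libraries were above both. Against control, Cav3 rose by 27.2% in MMA+FA (log2 0.34 ± 0.04, limma adjusted p = 0.000134), by 16.6% in MMA (log2 0.22 ± 0.04, limma adjusted p = 0.00546) and by 17.2% in FA cells (log2 0.23 ± 0.04, limma adjusted p = 0.0100). Against MMA alone, MMA+FA cells had a log2 difference of 0.12 that missed the threshold (limma adjusted p = 0.0672) and passed it after median-ratio scaling (0.17, limma adjusted p = 0.0187).

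Cavin1, the cavin without which caveolae are not formed in any tissue, had the largest difference of any tested member, in MMA+FA against control. It was at 63.7, 73.0 and 78.2 TPM in MMA+FA, 46.8, 42.3 and 56.5 TPM in MMA, 58.6, 53.7 and 61.3 TPM in FA, against 46.3, 46.7 and 38.5 TPM in control cells. All MMA+FA libraries were above those of the other groups, all FA libraries were above control, and MMA and control libraries overlapped. Cavin1 rose by 63.5% in MMA+FA against control (log2 0.70 ± 0.11, limma adjusted p = 0.000544) and by 47.6% in MMA+FA against MMA (log2 0.56 ± 0.11, limma adjusted p = 0.00522). In FA against control its log2 difference was 0.40 ± 0.11 (limma adjusted p = 0.0343), a call lost without FA replicate 1 or 3 and without any 1 of the 3 control libraries (limma adjusted p = 0.0551 to 0.144). MMA against control gave 0.14 ± 0.11 and did not pass (limma adjusted p = 0.375).

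Cavin2, which binds phosphatidylserine and helps to bend the caveolar membrane, differed little between the treated groups. It was at 55.9, 59.1 and 65.8 TPM in MMA+FA, 56.5, 60.9 and 59.5 TPM in MMA, 64.2, 59.5 and 61.7 TPM in FA, against 54.9, 54.9 and 52.6 TPM in control cells. The control libraries were below all 9 treated ones, and the 3 treated groups overlapped. With the main settings and all 12 libraries, Cavin2 did not pass in any tested comparison on the scale of the deposited values. Its log2 differences from control were 0.15 in MMA+FA, 0.12 in MMA and 0.19 in FA (limma adjusted p = 0.0564, 0.150 and 0.0520). Some alternatives gave a call in MMA+FA or in FA against control. After median-ratio scaling all 3 passed, at 0.27, 0.20 and 0.24 (limma adjusted p = 0.00499, 0.0413 and 0.0293). Against MMA, MMA+FA cells had a log2 difference of 0.03 (limma adjusted p = 0.795), whose sign turned when MMA+FA replicate 3 or MMA replicate 1 was left out.

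Cavin3, a protein kinase C delta binding protein that joins caveolae through Cavin1, was the most abundant transcript of the family. It was at 389, 381 and 434 TPM in MMA+FA, 362, 349 and 391 TPM in MMA, 369, 325 and 392 TPM in FA, against 287, 303 and 281 TPM in control cells. All 9 treated libraries were above all control libraries, and the 3 treated groups overlapped one another. Cavin3 rose against control by 38.2% in MMA+FA (log2 0.46 ± 0.07, limma adjusted p = 0.0005), by 26.6% in MMA (log2 0.34 ± 0.07, limma adjusted p = 0.00812) and by 24.7% in FA cells (log2 0.31 ± 0.07, limma adjusted p = 0.0189). The call in FA was lost without FA replicate 1 or 3 or control replicate 1 or 3 (limma adjusted p = 0.0564 to 0.0818). Between MMA+FA and MMA the log2 difference was 0.13 (limma adjusted p = 0.274).

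Cavin4, also called MURC, is found in striated muscle, where it partners Cav3. It was at 25.1, 24.9 and 30.8 TPM in MMA+FA, 16.8, 18.5 and 16.8 TPM in MMA, 17.2, 20.1 and 19.2 TPM in FA, against 16.7, 16.3 and 14.9 TPM in control cells. The MMA+FA libraries stood above all others, the MMA and FA libraries overlapped, and both were above control. Cavin4 was 43.3% higher in MMA+FA than in FA cells, a log2 difference of 0.49 ± 0.08 (SE), which is the value it was chosen for and is given with no test. Its mean in MMA+FA was 54.9% above that in MMA (log2 0.60) and 69.1% above that in control cells (log2 0.72), and in FA 18.0% above control (log2 0.22 ± 0.08). These values share libraries with the choice and are not tested either.

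The one test that Cavin4 allows is MMA against control, where its means were 17.4 ± 0.970 TPM in MMA and 15.9 ± 0.940 TPM in control cells (SD, n = 3 each). The log2 difference of 0.12 ± 0.08 did not pass (limma adjusted p = 0.330), also after median-ratio scaling (0.19, limma adjusted p = 0.127), although the libraries did not overlap. An estimate of how far the MMA+FA mean lay above the sum of the effects of MMA and FA on the log2 scale was 0.37 ± 0.12 for Cavin4, and between -0.19 and 0.16 for the other 6 members; it contains the contrast used for the choice and is a description.

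Beside Cavin4, Cavin1 and Cav3 had all MMA+FA libraries above all FA libraries, by 23.8% (log2 0.30) and 8.53% (log2 0.12), and 5.07% of all tested genes did so (23.7% had all MMA+FA libraries lower). The other log2 differences between MMA+FA and FA were 0.09 for Cav1, -0.08 for Cav2, 0.15 for Cavin3 and -0.04 for Cavin2, the last of which became 0.04 after median-ratio scaling. In this contrast 10.5% of all tested genes passed the test, 1.6% as higher and 8.9% as lower, or 3.43% and 2.46% after median-ratio scaling, and nothing is read from these counts because the choice of the members used it.

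**Figure D2:**
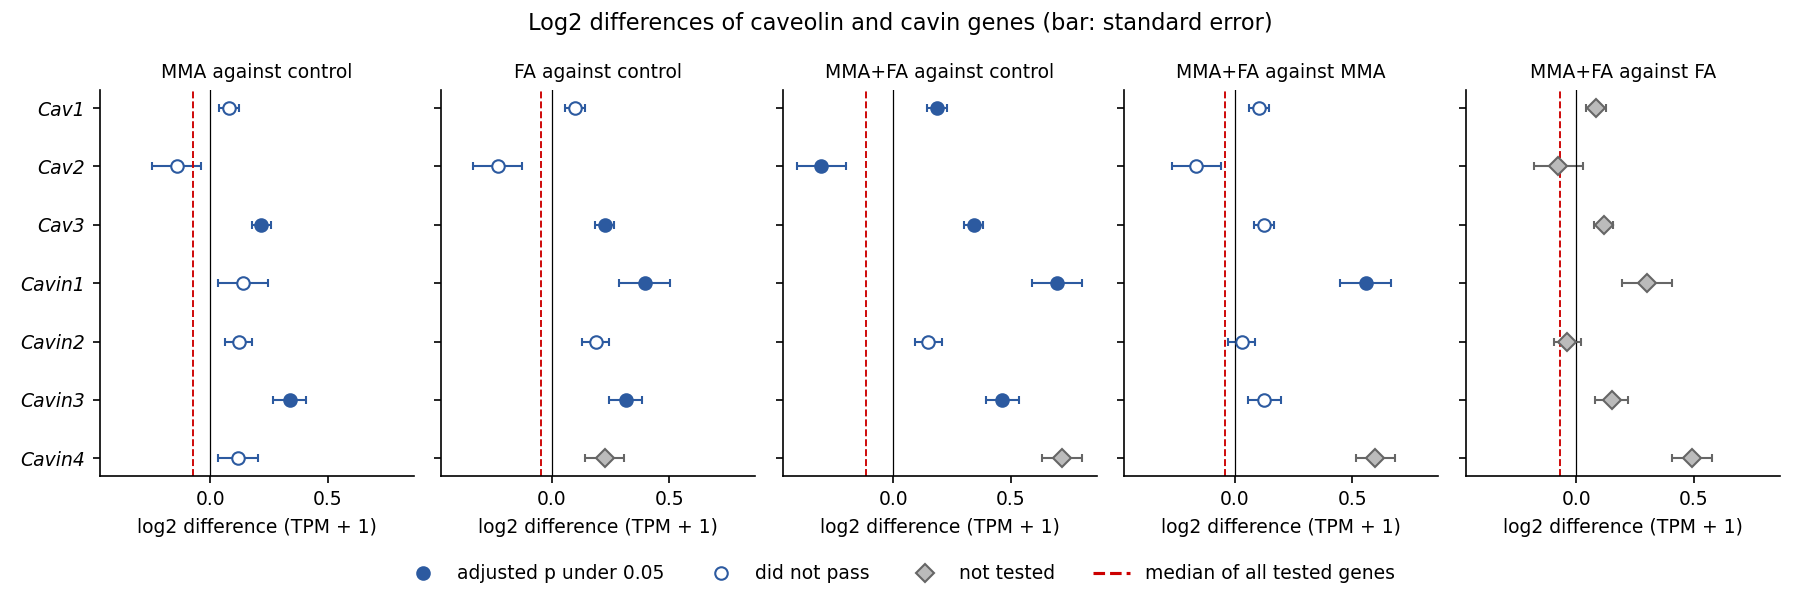
Log2 differences of the 7 genes with limma standard errors, in 5 comparisons; filled circles passed the test, open circles did not, grey diamonds were not tested, and the dashed line is the median of all tested genes. Cav2 is left of 0 in every comparison, at -0.31 in MMA+FA against control, and Cavin1 and Cavin4 have the largest positive values there, 0.70 and 0.72.

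Counted over the family, MMA+FA against control gave 4 higher members (Cav1, Cav3, Cavin1 and Cavin3) and 1 lower (Cav2) of the 6 tested. Among all tested genes 39.3% passed in that comparison, 6.67% as higher and 32.6% as lower, and after median-ratio scaling 15.5% as higher and 13.9% as lower, with 5 members higher (Cavin2 joining) and none lower. In MMA against control 2 of 7 were higher (Cav3 and Cavin3) and none lower, beside 20.4% of all tested genes passing, 3.85% as higher and 16.5% as lower, or 8.16% and 6.91% after median-ratio scaling, where 4 members were higher. FA against control gave 3 higher of 6 (Cav3, Cavin1 and Cavin3) and none lower, beside 12.4% of all tested genes, 3.67% as higher and 8.7% as lower, or 5.78% and 3.88% after that scaling, where 5 members were higher. The 3 in FA became 1, Cav3, without FA replicate 1, FA replicate 3, control replicate 1 or control replicate 3, and without FA replicate 2 they became 4 higher and 1 lower, the last being Cav2. MMA+FA against MMA gave 1 of 6, Cavin1, beside 13.7%, 4.19% as higher and 9.53% as lower, or 6.39% and 6.19% after that scaling, where 3 members were higher. These comparisons share their control or MMA+FA libraries and are not independent of one another. In each of them the median of all tested genes was slightly below 0, at -0.12 for MMA+FA, -0.07 for MMA and -0.05 for FA against control and -0.04 for MMA+FA against MMA. Relative to that median, the log2 differences in MMA+FA against control were 0.30 for Cav1, -0.19 for Cav2, 0.46 for Cav3, 0.81 for Cavin1, 0.27 for Cavin2, 0.58 for Cavin3 and 0.83 for Cavin4.

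Separation of the libraries was counted without Cavin4 wherever MMA+FA or FA libraries enter. Against control, 5 of 6 members had all libraries higher in MMA+FA, where 10.4% of all tested genes did, and Cav2 had all of them lower, as did 43.4% of all tested genes. In FA the same 5 members were above control in every library, beside 9.43% of all tested genes, and none was below it, beside 24.3%. In MMA cells 4 of 7 members were above control, Cav3, Cavin2, Cavin3 and Cavin4, beside 10.5% of all tested genes, and none was below, beside 34.8%. MMA+FA libraries were above all MMA libraries for 3 of 6 members, Cav1, Cav3 and Cavin1, beside 10.7%, and below them for none, beside 22%. In bulk RNA, fewer cells of a kind and less RNA per cell cannot be told apart.

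Ratios within a library show how the make-up of the family differed. Cavin2 over Cavin1 averaged 0.843 ± 0.0338 in MMA+FA, 1.23 ± 0.194 in MMA, 1.07 ± 0.0554 in FA and 1.24 ± 0.107 in control cells, with the highest MMA+FA library at 0.877 and the lowest of the others at 1.01. Cavin4 over Cav3, the pair of the muscle forms, averaged 0.392 ± 0.0338 in MMA+FA, and 0.277 ± 0.0232 in MMA, 0.298 ± 0.0173 in FA and 0.296 ± 0.0186 in control cells. Ratios with Cavin4 use the MMA+FA and FA values on which it was chosen, so they are only descriptions. Cavin4 over Cavin1 did not separate the groups, with library values of 0.341 to 0.394 in MMA+FA, 0.298 to 0.437 in MMA, 0.293 to 0.373 in FA and 0.348 to 0.386 in control cells.

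**Figure D3:**
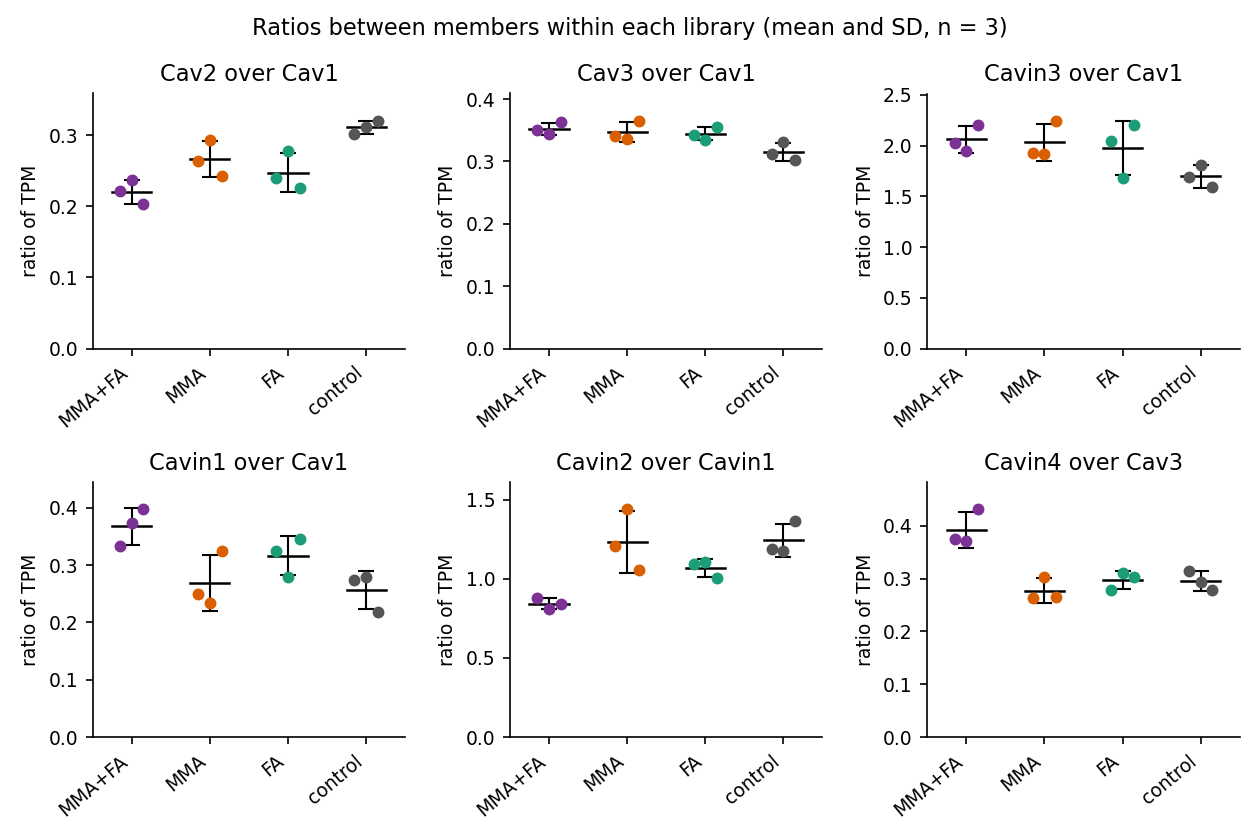
Ratios of TPM between members within each library, by group (MMA+FA, MMA, FA, control); points are libraries, bars the mean and SD (n = 3), axes start at 0. Cav2 over Cav1 is highest in control, at 0.302 to 0.320, and Cavin2 over Cavin1 is lowest in MMA+FA, at 0.810 to 0.877.

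In summed level, the 3 caveolins came to 306 TPM in MMA+FA, 292 in MMA, 292 in FA and 278 in control cells. The 4 cavins came to 560 TPM in MMA+FA, 492 in MMA, 500 in FA and 404 in control cells, most of it Cavin3. Cav2 made up 14.0% of the caveolin sum in MMA+FA, 16.5% in MMA, 15.5% in FA and 19.1% in control cells, and Cav3 22.4% in MMA+FA, 21.5% in MMA, 21.6% in FA and 19.4% in control cells. Cavin4 was a small share of the cavin sum, 4.80% in MMA+FA, 3.54% in MMA, 3.78% in FA and 3.94% in control cells. That share also uses the values on which Cavin4 was chosen.

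Cav2 and Cavin3 also ran opposite to each other inside groups. In all 4 groups the library with the highest Cav2 had the lowest Cavin3, and in 3 of the 4 the library with the lowest Cav2 had the highest Cavin3. This was noticed after the values were seen. It was not particular to this pair. Over deviations from the group means, Pearson's r was -0.925 for Cav2 with Cavin3, -0.736 for Cav2 with Cavin1 and -0.676 for Cav1 with Cavin3. It was 0.797 for Cav1 with Cav2 and 0.752 for Cavin1 with Cavin3. The library with the highest Cav2 was replicate 2 in each treated group and replicate 3 in control cells, and in all 4 groups it was also the one with the highest mitochondrial share, at 11.1% in MMA+FA, 11.4% in MMA, 10.4% in FA and 9.87% in control. The part of that share in the pattern was not tested.

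The 5 genes whose log2(TPM + 1) over the 12 libraries was most like that of Cavin4 were Tp53inp2 (an autophagy and nuclear receptor cofactor), Sdc4 (a cell-surface heparan sulphate proteoglycan), Nit1 (an amidase), Msmo1 (a sterol oxidase of cholesterol synthesis) and Mef2c (a muscle transcription factor). Pearson's r with Cavin4 was 0.965 for Tp53inp2, 0.963 for Sdc4, 0.955 for Nit1, 0.951 for Msmo1 and 0.949 for Mef2c, and with MMA+FA replicates 1 and 3 left out it was 0.860 to 0.923. Mef2c averaged 38.7 ± 3.06 TPM in MMA+FA, 29.7 ± 2.10 in MMA, 32.6 ± 1.19 in FA and 29.0 ± 0.340 in control cells. Cav1 was most like Slc66a3 (r = 0.925), Sdcbp (0.909), Klf6 (0.897), Actr3 (0.886) and Snx18 (0.877). These are descriptions over 12 libraries that share 4 group means and 1 scaling, chosen as the highest of all genes, so no p is given.

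**Figure D4:**
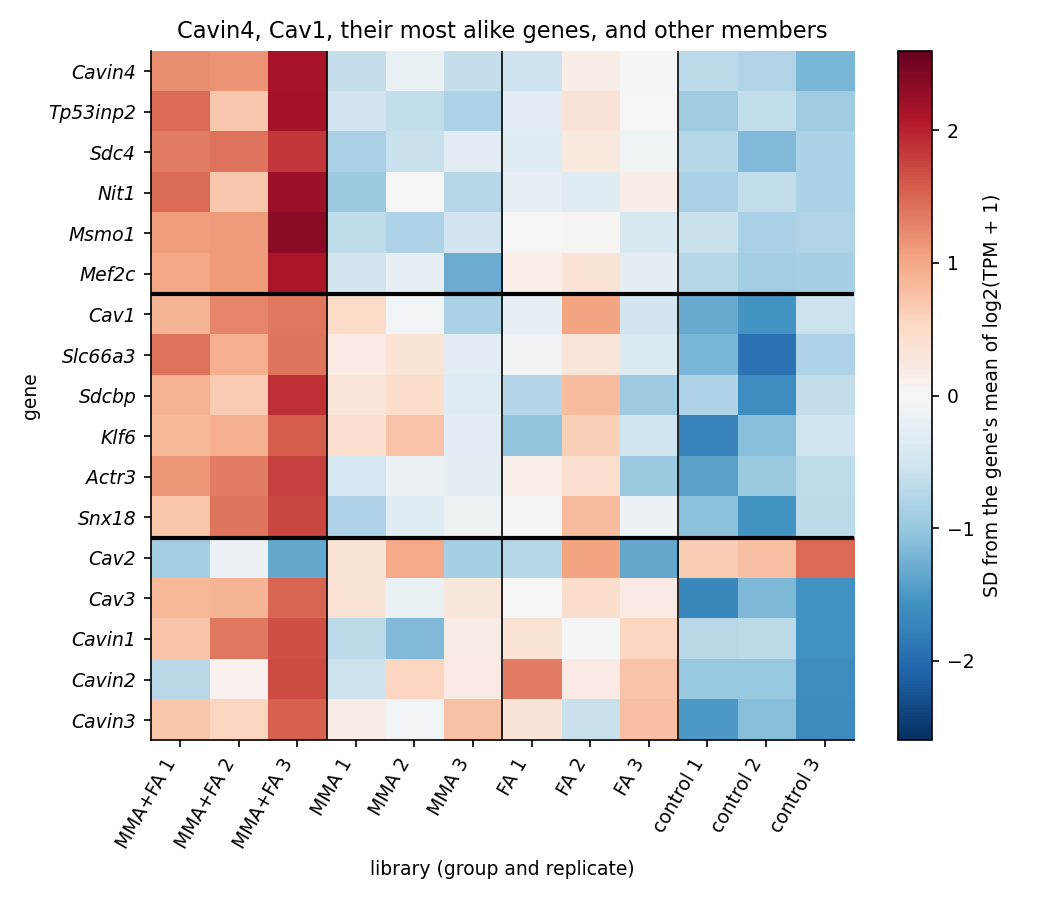
Heat map of log2(TPM + 1) as SDs from each gene's mean, for Cavin4 and Cav1, each followed by the 5 genes most like it, and for the other 5 members, in the 12 libraries ordered by group (MMA+FA, MMA, FA, control). The MMA+FA libraries are the 3 highest for Cavin4 and for each of its 5 genes, which were picked for this likeness.

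The proteins that work with caveolins and cavins were followed as lists written from general knowledge. Of the 13 tested partners of the caveolar neck and coat (EHD and PACSIN proteins, dynamins, filamin A and Src-family kinases), MMA+FA against control gave 1 higher and 2 lower, with a median log2 difference of -0.05, beside 39.3% passing and a median of -0.12 over all genes. Ehd2, the ATPase that holds caveolae at the surface, averaged 72.7 ± 2.66 TPM in MMA+FA, 57.1 ± 5.55 in MMA, 68.8 ± 6.70 in FA and 52.8 ± 1.44 in control cells. It rose in MMA+FA against control (log2 0.46 ± 0.07, limma adjusted p = 0.00072), in MMA+FA against MMA (0.35 ± 0.07, limma adjusted p = 0.00942) and in FA against control (0.37 ± 0.07, limma adjusted p = 0.0125, but 0.0624 without control replicate 3). No gene of this list passed in MMA against control. After median-ratio scaling the list had 4 higher and none lower in MMA+FA against control, beside 15.5% of all tested genes higher and 13.9% lower.

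Of 23 tested receptors, channels and enzymes that have been reported in caveolae, 5 were higher and 8 lower in MMA+FA against control, 2 and 7 in MMA against control, and 3 and 3 in FA against control. The share of the list called was 56.5%, 39.1% and 26.1% in these comparisons, beside 39.3%, 20.4% and 12.4% of all tested genes. After median-ratio scaling these splits became 9 and 4, 3 and 2, and 6 and 1. Over all tested genes, 15.5% were then higher and 13.9% lower in MMA+FA, 8.16% and 6.91% in MMA, and 5.78% and 3.88% in FA against control. On the deposited scale the list median in MMA+FA against control was -0.02. Ednra, the endothelin A receptor, averaged 11.48 ± 0.432 TPM in MMA+FA, 6.75 ± 0.231 in MMA, 9.19 ± 0.8 in FA and 7.57 ± 0.260 in control cells, and in MMA+FA rose by 0.54 against control and 0.69 against MMA on the log2 scale (limma adjusted p = 0.000148 and 7.42e-05). Its call in FA against control (log2 0.25, limma adjusted p = 0.0328) was lost without FA replicate 1 or 2 or any 1 control library. Slc8a1, the sodium-calcium exchanger, averaged 35.4 ± 3.58 TPM in MMA+FA, against 25.2 ± 0.625 TPM in control cells, and rose (log2 0.47, limma adjusted p = 0.000333). Bmpr2, a receptor for bone morphogenetic proteins, fell to 29.1 ± 1.2 TPM in MMA+FA and 31.0 ± 1.48 TPM in MMA, against 38.7 ± 1.04 TPM in control cells (log2 -0.40 and -0.31, limma adjusted p = 0.000142 and 0.00281).

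Of 17 tested genes of the dystrophin complex and sarcolemma, the Cav3 neighbourhood in muscle, 6 were higher and 4 lower in MMA+FA against control, 1 and 3 in MMA, and 4 and 1 in FA against control. That is 58.8%, 23.5% and 29.4% of the list, beside 39.3%, 20.4% and 12.4% of all tested genes. In MMA+FA against control the 4 lower ones were the syntrophins Sntb1 and Sntb2 and the sarcoglycans Sgca and Sgce. Among the 6 higher ones were the annexins Anxa1 and Anxa2, Dysf, and Dag1 (dystroglycan). The median was 0.03 in MMA+FA against control, and the splits became 8 and 0, 1 and 1, and 6 and 0 after median-ratio scaling. Beside these, 15.5% of all tested genes were higher and 13.9% lower in MMA+FA, 8.16% and 6.91% in MMA, and 5.78% and 3.88% in FA. Dysf, the membrane repair protein dysferlin, averaged 49.9 ± 4.28 TPM in MMA+FA, 37.0 ± 1.98 TPM in MMA, 46.0 ± 4.12 TPM in FA and 37.8 ± 0.964 TPM in control cells. It rose in MMA+FA against control (log2 0.39, limma adjusted p = 0.00154) and against MMA (log2 0.42, limma adjusted p = 0.00254). In FA against control it passed (log2 0.27, limma adjusted p = 0.0320), a call lost without FA replicate 1 or 3 or any 1 control library. Sgca, alpha-sarcoglycan, fell to 72.6 ± 4.6 TPM in MMA+FA, against 87.7 ± 1.5 TPM in MMA cells (log2 -0.27, limma adjusted p = 0.0064).

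Of 9 tested genes of the transverse tubule and triad, 2 rose and 2 fell in MMA+FA against control, 2 rose in FA against control, and none passed in MMA against control. That is 44.4%, 22.2% and none of the list, beside 39.3%, 12.4% and 20.4% of all tested genes. After median-ratio scaling 4 were higher and 1 lower in MMA+FA against control, beside 15.5% and 13.9% of all tested genes. Casq2, the cardiac calcium-binding calsequestrin, averaged 489.7 ± 19.8 TPM in MMA+FA and 455 ± 5.01 TPM in FA, against 388 ± 6.82 TPM in control cells. It rose in MMA+FA against control (log2 0.34, limma adjusted p = 9.13e-05) and in FA against control (log2 0.23, limma adjusted p = 0.00619). Jph2, which ties the tubule to the sarcoplasmic reticulum, averaged 68.3 ± 2.83 TPM in MMA+FA, 52.9 ± 3.04 TPM in MMA, 66.1 ± 6.04 TPM in FA and 55.1 ± 3.43 TPM in control cells. It rose in MMA+FA against control (log2 0.31, limma adjusted p = 0.00477) and against MMA (log2 0.36, limma adjusted p = 0.00497). Its call in FA against control (log2 0.26, limma adjusted p = 0.0333) was lost without FA replicate 1 or 3 or control replicate 2 or 3.

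Of 4 tested genes of the serum response factor group, Srf and Mrtfa fell in MMA against control (log2 -0.28 and -0.31, limma adjusted p = 0.00651 and 0.0109), where 16.5% of all tested genes were lower. In MMA+FA against control Mrtfa alone fell (-0.33, limma adjusted p = 0.00339), where 32.6% of all tested genes were lower. Median-ratio scaling gave 1 higher and 1 lower there, beside 15.5% and 13.9% of all tested genes.

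Flotillins and clathrin stand for membrane domains and coats other than caveolae. Of 9 tested flotillins and related proteins, 2 fell and none rose in MMA+FA against control, where 32.6% of all tested genes were lower and 6.67% higher. The 2 were Stoml1 and Erlin1, neither of them a flotillin. Erlin1, which binds cholesterol in the endoplasmic reticulum, averaged 54.8 ± 5.14 TPM in MMA+FA, against 84.8 ± 5.43 TPM in control cells (log2 -0.62, limma adjusted p = 0.000186). Flot1 and Flot2, which build the flotillin domains, had log2 differences of -0.09 and -0.07 and did not pass (limma adjusted p = 0.317 and 0.364). After median-ratio scaling 2 of this list were higher and 1 lower, beside 15.5% and 13.9% of all tested genes. Of 11 tested clathrin coat genes, 3 rose and 3 fell in the same comparison, which is 54.5% of the list beside 39.3% of all tested genes. Median-ratio scaling gave 4 higher and 1 lower, beside 15.5% and 13.9% of all tested genes. On the deposited scale the light chains Clta and Cltb were higher (log2 0.17 and 0.34, limma adjusted p = 0.00353 and 0.000141) and Picalm lower (-0.30, limma adjusted p = 0.00146).

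**Figure D5:**
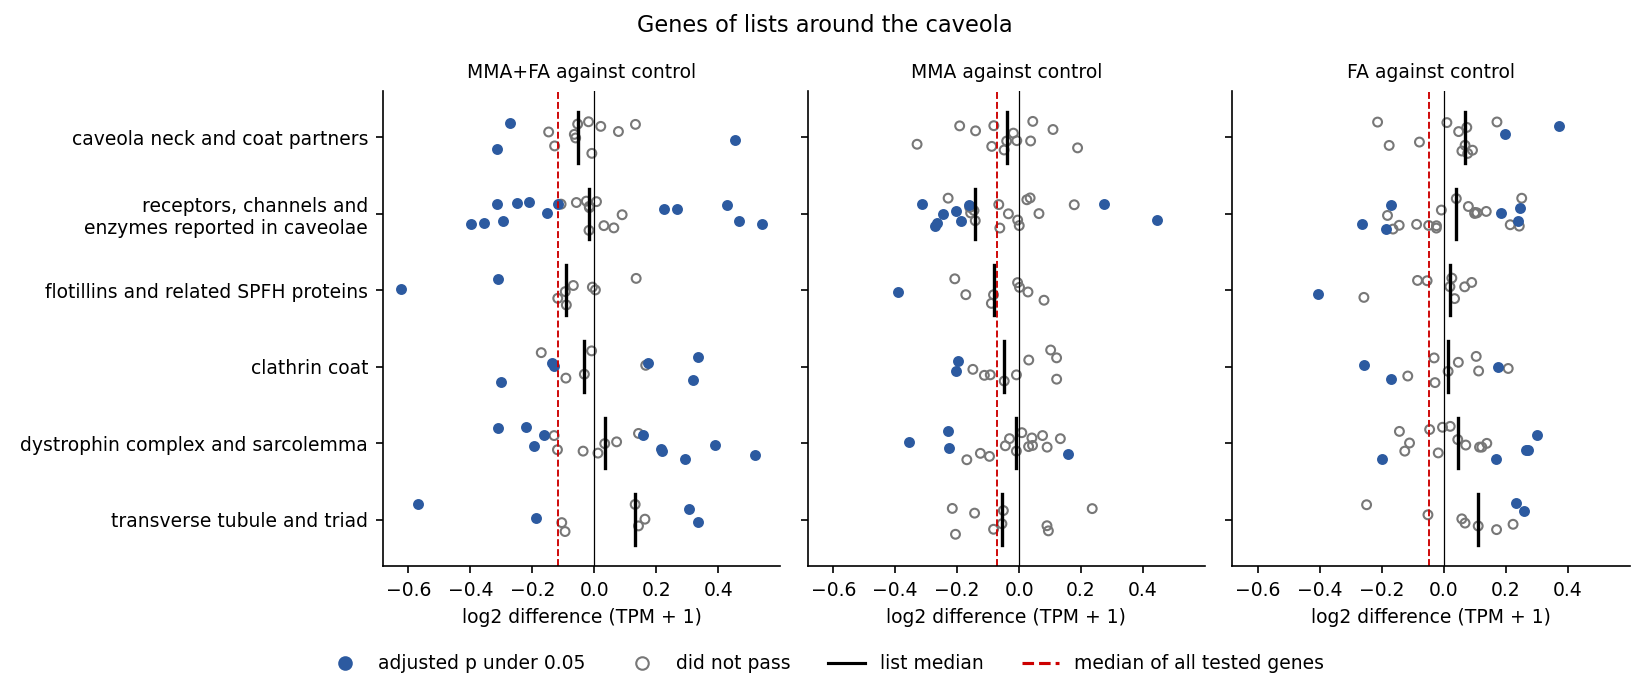
Log2 differences of the tested genes of 6 lists in MMA+FA, MMA and FA against control; filled points passed the test (limma adjusted p under 0.05), black lines are list medians and the dashed line is the median of all tested genes. The dystrophin complex and sarcolemma list has 6 higher and 4 lower of 17 in MMA+FA, the lower ones being syntrophins and sarcoglycans. Its median of 0.03 lies above the -0.12 of all tested genes.

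Some markers of muscle and fibroblasts were higher in MMA+FA or FA than in control cells, and others were not. The 7 smooth muscle markers, of cells in which caveolae are plentiful, summed to 8884 to 9292 TPM in MMA+FA, 7137 to 8280 in MMA, 8081 to 8752 in FA and 7280 to 7357 in control libraries. Acta2 and Tagln made up most of these sums, averaging 5774 and 2288 TPM in MMA+FA. Myh11, the smooth muscle myosin, was low, from 2.07 TPM on average in MMA to 3.22 TPM in MMA+FA. Of the 7 markers, 3 were higher and none lower in MMA+FA against control, beside 6.67% of all tested genes higher. Median-ratio scaling gave 6 higher, beside 15.5% of all tested genes. In MMA+FA against MMA 4 of the 7 were higher, beside 4.19% of all tested genes. MMA against control gave 1 lower, Lmod1, and none higher, beside 16.5% of all tested genes lower and 3.85% higher. The fall of Lmod1 did not pass after median-ratio scaling.

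The 11 cardiomyocyte markers in the table summed to 84.1 to 104 TPM in MMA+FA, 38.3 to 40.7 in MMA, 61.7 to 64.4 in FA and 32.2 to 38.0 in control libraries. Nearly all of the difference was Tnnt2, while Myh6, Myh7, Actn2, Ryr2 and Actc1 were near 0 and Gata4 and Nkx2-5 had log2 differences of -0.15 and 0.03 in MMA+FA against control that did not pass (limma adjusted p = 0.105 and 0.824). The skeletal muscle markers summed to 135 to 153 TPM in MMA+FA, 129.8 to 143 in MMA, 155 to 161 in FA and 152 to 164 in control libraries, a lower mean in MMA+FA and MMA than in control. Of the 9 tested, 3 were higher and 1 lower in MMA+FA against control, beside 6.67% of all tested genes higher and 32.6% lower. The lower one was Myod1, at 31.7 TPM in MMA+FA and 72.7 TPM in control cells. Its fall was larger than that of the summed mean, which was 143 TPM in MMA+FA and 158 TPM in control cells. Among the higher ones, Acta1 averaged 9.25 TPM in MMA+FA and 3.77 TPM in control cells, and Tnnc2 59.8 and 41.1 TPM.

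The 10 markers of fibroblasts, cells that also hold many caveolae, summed to 10390 to 11926 TPM in MMA+FA, 10178 to 11351 in MMA, 11449 to 13373 in FA and 9787 to 10584 in control libraries. Col1a1, Col1a2, Col3a1 and Vim made up nearly all of these sums. Fap and Tcf21 were at 0 in every library, and Pdgfra and Dcn averaged at most 0.127 and 0.427 TPM in any group. Of 6 tested, 1 was higher in MMA+FA against control and 4 in FA against control, beside 6.67% and 3.67% of all tested genes higher. After median-ratio scaling these became 5 and 4, beside 15.5% and 5.78%. The 1 tested adipocyte marker and the 2 tested leukocyte markers did not pass on the deposited scale. With median-ratio scaling 1 leukocyte marker was higher in MMA+FA and in MMA against control, beside 15.5% and 8.16% of all tested genes. The part of these changes in the values of the caveolins and cavins was not tested.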

How the data were processed

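The 12 libraries of H9c2 RNA were used as labelled, with 3 per group. Per the labels, polyA RNA went into a stranded Illumina library. The submitters' processing notes name fastp, HISAT2 and the rat build mRatBN7.2. The authors deposited TPM for each gene. RSEM is named only by the title of their table, and the sources used here give no versions, annotation or strand setting. TPM keeps no read depth, so the counting error is unknown.

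From these TPM values, log2(TPM + 1) was fitted in limma 3.58.1 (R 4.3.3, reading with the data.table package in version 1.17.8), taking the 12263 genes that averaged 1 TPM or more. The model had a mean for each group, a mean-variance trend, 8 residual degrees of freedom and 4.317 prior ones. Adjustment was by Benjamini-Hochberg over all tested genes, with a threshold of 0.05. The log2 scale understates the change of low genes. The fit was tested on simulated data.

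The members, lists and tests were chosen with earlier results of these data known. All 7 members are named. Of a list, called genes with at least 5 TPM in 1 group were eligible, up to 4 per direction by smallest p, and the text names part of them. The results of 1 list are not reported here. Marker genes are named to check the cells, and Flot1 and Flot2 were named after their values were seen. Over all tested genes, deviations from group means of libraries with equal replicate numbers correlated at -0.12 to 0.09 in the groups compared. The labels do not say whether a number marks a shared batch. In each treated group Cav2 was highest in replicate 2 and lowest in replicate 3, and Cavin3 the reverse. A shared batch was not tested for these genes. The alternatives were median-ratio scaling, quantile normalization, dropping mitochondrially encoded genes, another pseudocount or filter, no trend, fits of only the groups compared, a replicate block, and each library left out. Promoter sequences and neighbouring genes are from RefSeq on GRCr8, a build other than that of the alignment. Figures were drawn with matplotlib 3.10.9 (Python 3.11.15).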

Additional observations from a re-analysis of the deposited data

How the results depend on the processing

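The calls of Cav1, Cav3, Cavin1 and Cavin3 in MMA+FA against control, of Cav3 and Cavin3 in MMA against control, of Cav3 in FA against control and of Cavin1 in MMA+FA against MMA were kept under every alternative run, including each library left out. Under median-ratio scaling the number of members called became 4 in MMA against control, 5 in FA against control and 3 in MMA+FA against MMA, and under quantile normalization 2 in MMA+FA against MMA. With 1 library left out, members called in FA against control numbered 1 to 5: only Cav3 without FA replicate 1, FA replicate 3, control replicate 1 or control replicate 3, and 5 without FA replicate 2. In MMA+FA against control the range was 4 to 5, in MMA against control it stayed at 2 and in MMA+FA against MMA at 1. Cavin2 in MMA+FA against MMA ranged from -0.0355 to 0.0801 with 1 library left out, and reversed without MMA+FA replicate 3 (-0.0355) and MMA replicate 1 (-0.00179). With the replicate number as a block, the members called stayed at 5, 2, 3 and 1 in MMA+FA, MMA and FA against control and MMA+FA against MMA, as without it. Cavin1 in FA against control was also lost with no filter on low genes (limma adjusted p = 0.0785) and with no trend (0.0519), and Cav2 in MMA+FA against control under quantile normalization (0.163), without mitochondrially encoded genes (0.0554) and with no filter (0.0749). Cavin2 gained a call in FA against control under quantile normalization (limma adjusted p = 0.0285) and with a filter of 5 TPM (0.0451). It also did so without MMA+FA replicate 1 (0.0430), MMA+FA replicate 3 (0.0292) or FA replicate 2 (0.0360). In MMA+FA against control it passed under quantile normalization (0.00873), without mitochondrially encoded genes (0.0405) and without MMA+FA replicate 1 (0.0211). The cause was not tested.

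Over all tested genes, the calls were 4818 in MMA+FA, 2501 in MMA and 1517 in FA against control, 1683 in MMA+FA against MMA and 1288 in MMA+FA against FA. FA against control moved to 928 with no filter and 604 with only its own groups in the fit, and MMA+FA against FA to 723, 507, 699 and 23 under median-ratio scaling, quantile normalization, no filter and only its own groups. With 1 library left out the ranges were 3605 to 5238, 1173 to 3026, 214 to 2571, 868 to 1948 and 357 to 2010 for the 5 comparisons in that order.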

Other observations

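Beside the members, the deposited table annotates 45 genes to the caveola. They were taken up as a list after the data were seen, and 31 were tested. In MMA+FA against control 6 were higher and 5 lower (35.5%, beside 39.3% of all tested genes), in MMA against control 2 and 3 (16.1%, beside 20.4%), in FA against control 4 and 3 (22.6%, beside 12.4%) and in MMA+FA against MMA 6 and 3 (29.0%, beside 13.7%). The median log2 difference of the list was -0.06 in MMA+FA against control, where that of all tested genes was -0.12. After median-ratio scaling the splits of higher and lower were 8 and 3 in MMA+FA, 4 and 1 in MMA and 5 and 2 in FA against control, and 6 and 2 in MMA+FA against MMA. The shares of all tested genes were then 15.5% and 13.9%, 8.16% and 6.91%, 5.78% and 3.88%, and 6.39% and 6.19%, in the same order.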
